A study of Mus musculus with 6 samples.

Results

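The mouse antigen receptor loci are long arrays of gene segments, and 4 of them were examined here for CTCF occupancy: the immunoglobulin heavy chain locus Igh, the immunoglobulin kappa locus Igk, the T cell receptor alpha and delta locus Tcra/Tcrd, and the T cell receptor beta locus Tcrb. The members are all CTCF peaks lying wholly inside fixed mm9 windows, whatever their strength. The windows ran on chromosome 12 from 114400000 to 117300000 for Igh, and on chromosome 6 from 67400000 to 70800000 for Igk. For Tcra/Tcrd the window ran on chromosome 14 from 53000000 to 54900000, and for Tcrb on chromosome 6 from 40800000 to 41600000. Together they span 9 Mb and held 145 of 40271 peaks in wild type, 133 of 29769 in the BRD2-null clone D and 139 of 32308 in the BRD2-null clone C8. Merged over the lists, these made 211 of the 48367 regions found in the whole genome.

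The peaks come from CTCF ChIP-seq of G1E-ER4 cells, a GATA1-null mouse erythroblast line that carries a GATA1 protein fused to the estrogen receptor. All libraries came from cells treated with 100 nM estradiol for 24 h, which activates the fusion protein. Wild type is 1 library, and cells with no detectable BRD2, a BET family reader of acetylated histones, are the CRISPR/Cas9 clones called D and C8, with 1 library each. Each clone is a single clonal sub-line, so loss of BRD2 and clonal origin cannot be told apart. The lists give no read totals, so depth is unknown, and a peak missing from a list was not called there, which does not show an unbound site. A single wild-type library allows no test of genotype, and no p-value is given. Peak lists hold no expression values, so the erythroid identity of the cells was not checked here.

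These loci are assembled by V(D)J recombination in lymphocytes: a V segment is joined to J, or to D and J, next to the constant (C) region. CTCF, a zinc finger protein, halts cohesin as it extrudes chromatin loops, and CTCF sites in the loci help to set which V segments reach the D and J segments. Known examples are a cluster of CTCF sites at the 3′ end of Igh, the IGCR1 element between the V and D segments of Igh, and the Cer and Sis elements between V and J of Igk. Erythroblasts are not known to rearrange these loci. In RefSeq (GRCm38.p6, used for names, counts and order only), Igh has 120 V segments and 63 V pseudogenes, Igk 102 and 60, Tcra/Tcrd 119 and 17, and Tcrb 22 and 13. No mm9 annotation was used here. Each window was therefore split at 1 position, set from general knowledge of the mm9 map, into a V side and a D-J-C side (for Igk, J and C). The splits lay at 114800000 in Igh, with D, J and C below it, and at 70650000 in Igk, 54700000 in Tcra/Tcrd and 41450000 in Tcrb, with D, J and C above. The windows may reach past the receptor genes, and in RefSeq order the first protein-coding neighbours are Zfp386 beyond the Igh V segments, Rpia beyond Igkc, Dad1 beyond Trac and Ephb6 beyond Trbv31. Which regions near the window edges lie beyond the last segment was not determined.

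The loci differed in how called CTCF peaks were laid out along them. Tcra/Tcrd carried peaks along its whole V side, while the V sides of Igh and Igk held few and mostly weak peaks. The D-J-C sides of Igh and Igk held dense groups of strong peaks. How uniquely reads could be placed in these arrays was not tested. Tcrb had a few strong V-side sites. Of the D-J-C side regions 24 of 32 (75%) were called in all 3 lists and of the V-side regions 59 of 179 (33%), against 49.5% of regions genome-wide. The map of peaks along each window shows this layout.

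**Figure D1:**
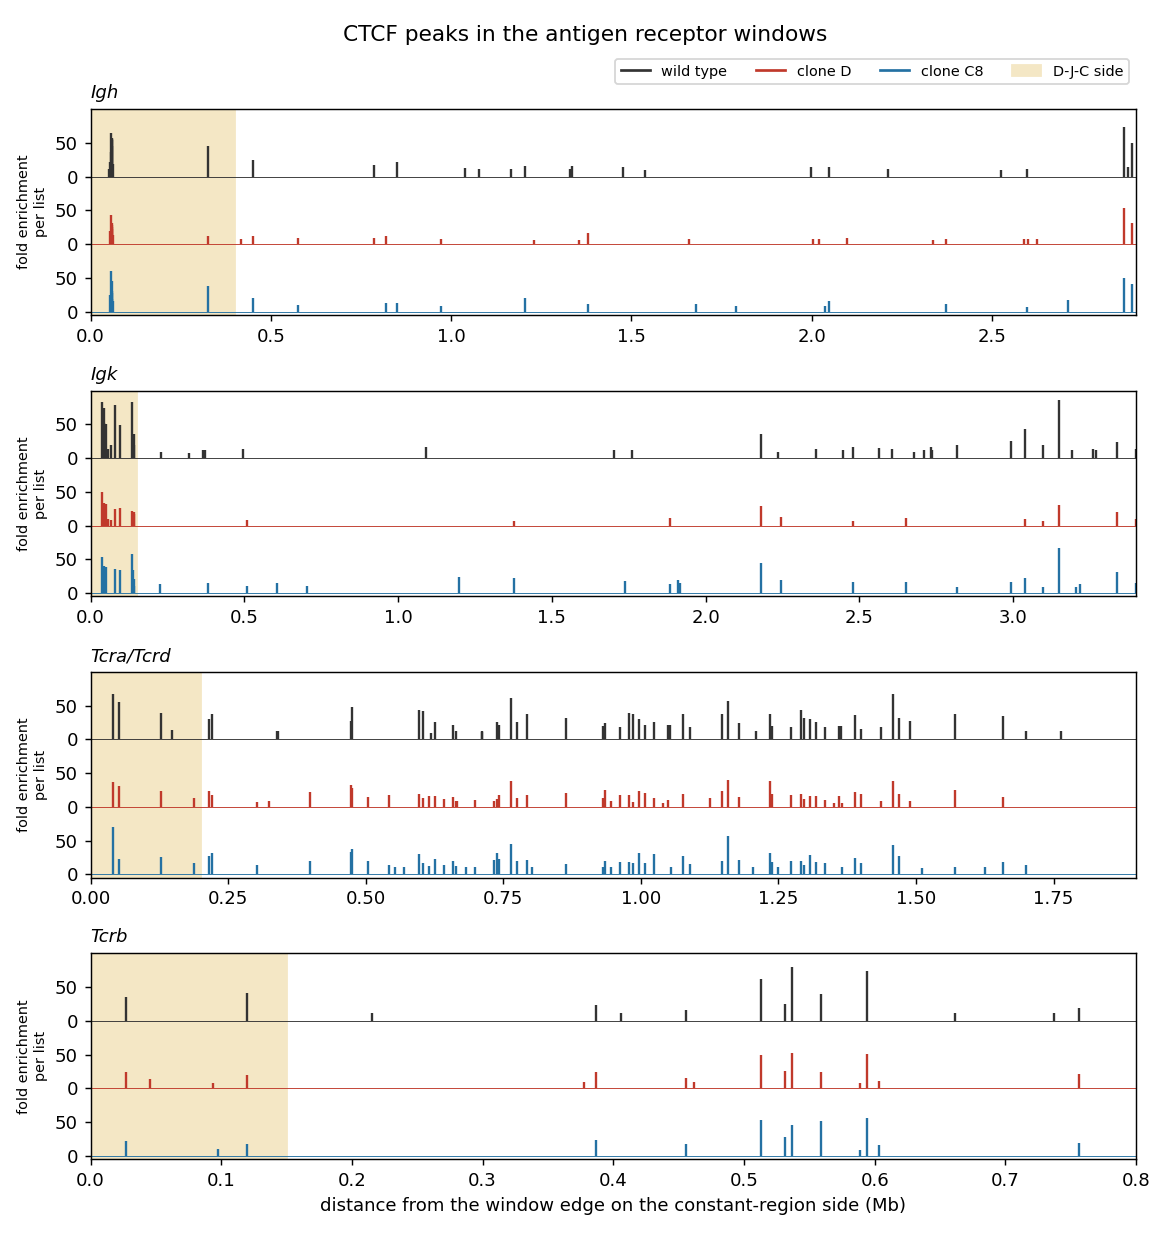
CTCF peaks in each window against the distance from the window edge on the constant-region side (Mb). Each vertical line is a region, its height the authors' fold enrichment in that list (0 to 100 per track; strongest peak of the region), with tracks for wild type, D and C8 and the D-J-C side shaded. The Igh and Igk windows have their tall lines at the shaded side and near the far edge, and Tcra/Tcrd has them along its length.

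Region by region, 83 of 211 (39.3%) were called in all 3 lists, against 49.5% of regions genome-wide. The clones shared 23 regions that wild type lacked (10.9%, genome 4.48%). Wild type shared 7 with D alone (3.32%, genome 2.7%) and 8 with C8 alone (3.79%, genome 4.54%). Private to 1 list were 46 regions of wild type (21.8%, genome 26.2%), 20 of D (9.48%, genome 4.7%) and 24 of C8 (11.4%, genome 7.94%). With all lists limited to the length of the shortest, the regions private to wild type were 7 by enrichment and 13 by −log10 p, the authors' p-value column. The genome-wide share at equal length was not computed, so this fall is not read as particular to the loci. Regions private to D were 11 of 49 in Igh (22.4%), 5 of 85 in Tcra/Tcrd (5.88%), 4 of 21 in Tcrb (19%) and 0 of 56 in Igk. Those private to C8 were 10 in Igk (17.9%), 9 in Tcra/Tcrd (10.6%), 4 in Igh (8.16%) and 1 in Tcrb (4.76%).

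**Figure D2:**
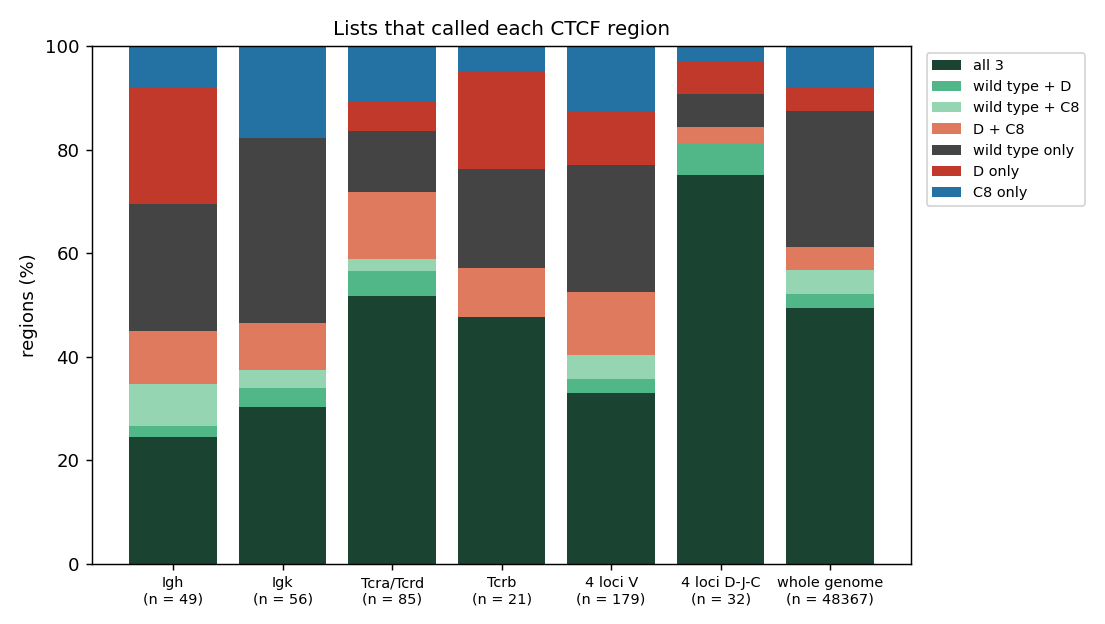
Share of regions (%) called in each combination of lists, for each locus, for the V and D-J-C sides of the 4 loci and for the whole genome, with the number of regions under each bar. The D-J-C sides have 75% of regions in all 3 lists, the V sides 33% and the genome 49.5%.

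Over all called peaks, peak numbers were furthest apart between the lists in Igk. Igh held 29 peaks in wild type, 29 in D and 25 in C8. Igk held 42, 24 and 35, so that D lay below C8 by more than the wild type lay above it. Tcra/Tcrd held 60, 64 and 66 peaks, more in each clone than in wild type although both clone lists are shorter. Tcrb held 14, 16 and 13. The order of the lists in Igk rested on weak peaks. With −log10 p at 10 or above, Igk held 15 peaks in wild type, 14 in D and 21 in C8. With the authors' false discovery rate limited to 0.05, it held 15, 19 and 33, so wild type then had the fewest. That limit was not equally strict in the lists. Over the whole lists it kept 21210 of 40271 wild-type peaks, 28220 of 29769 of D and 27576 of 32308 of C8.

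Per Mb, Tcra/Tcrd was the densest window in each list, with 31.6 peaks in wild type, 33.7 in D and 34.7 in C8. Autosomal tiles of the same 1.9 Mb length had medians of 12.6, 8.95 and 10, and 88.6%, 94.1% and 93.7% of the 1262 tiles were less dense than the locus. Tcrb followed with 17.5, 20 and 16.2 peaks per Mb, against tile medians of 11.2, 7.5 and 8.75. Igh had 10, 10 and 8.62 peaks per Mb and Igk 12.3, 7.06 and 10.3. Both stood near the middle of their tiles: 33.3% to 52% of tiles were less dense than Igh and 35.6% to 50.1% less dense than Igk. These percentages describe the lists and are not tests.

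**Figure D3:**
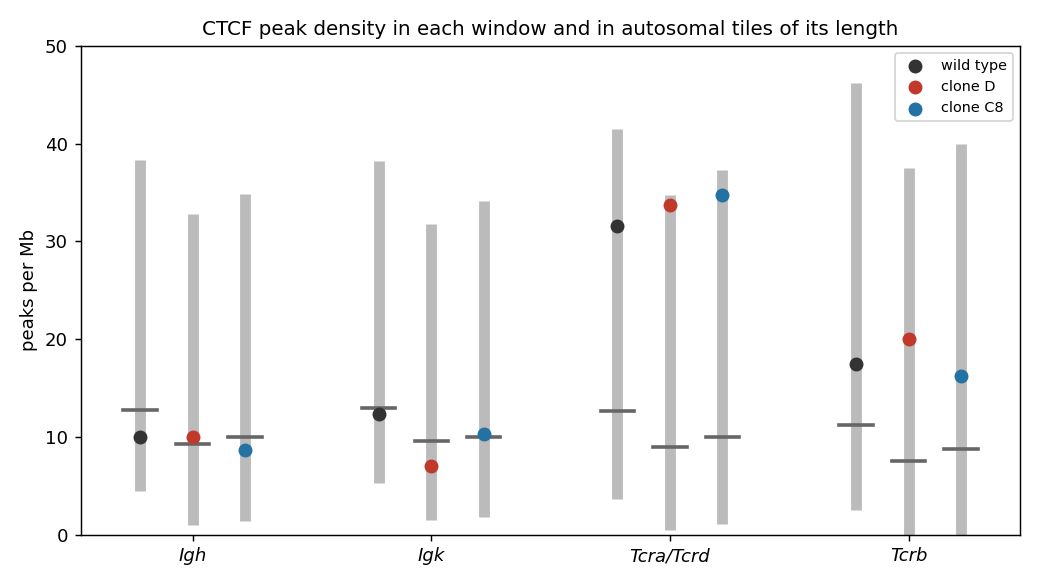
Peaks per Mb (y axis) in each window in wild type, D and C8 (points). Grey bars run from the 5th to the 95th percentile of autosomal tiles of the same length in the same list and the dark line is their median; Tcra/Tcrd lies at 31.6 to 34.7 peaks per Mb, below the 95th percentile in each list.

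Spacing, the distance between the centres of neighbouring peaks of a list, was shorter at the median in Tcra/Tcrd than in the immunoglobulin loci when all called peaks were counted. The median spacing in Tcra/Tcrd was 17.7 kb in wild type, 17.1 kb in D and 17.3 kb in C8, and the longest was 134 kb, 87.4 kb and 95.5 kb. The median over the whole lists was 24.9, 26.2 and 25.2 kb. In Igh the medians were 56.5, 34.0 and 118 kb and in Igk 45.3, 55.0 and 58.9 kb. Both mix very short and very long distances. In Igh, 32.1%, 25% and 29.2% of spacings were at most 5 kb, and 35.7%, 39.3% and 58.3% were over 100 kb. Over the whole lists 17.9%, 15.8% and 16.5% were at most 5 kb and 17.5%, 17.7% and 17.5% over 100 kb. Tcrb had no spacing of at most 5 kb in any list, and its medians were 49.5, 21.8 and 26.2 kb. The order of the loci rested on weak peaks: with −log10 p at 10 or above the medians were 1.87, 2.00 and 1.99 kb in Igh, 22.7, 16.2 and 87.9 kb in Igk, and 20.4, 19.1 and 21.3 kb in Tcra/Tcrd. The Igh medians also depended on the window, being 32.7, 27.4 and 27.3 kb with 100 kb added at each edge, so their differences between the lists are not read further.

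On the V sides alone, again over all called peaks, the contrast was larger. Median spacing on the Tcra/Tcrd V side was 17.3, 17.1 and 17.2 kb, with quartiles of 8.53 and 32.0 kb in wild type. A run of wild-type spacings there from 53535225 (4.68, 24.8 and 17.1 kb) nearly recurred from 53846254 (4.70, 24.8 and 17.2 kb). Whether the sequence is repeated there was not tested. On the Igh V side the medians were 80.6, 124 and 156 kb and on the Igk V side 60.1, 188 and 121 kb. For both immunoglobulin V sides wild type had the shortest median. The order of the clones was opposite in the 2 loci.

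**Figure D4:**
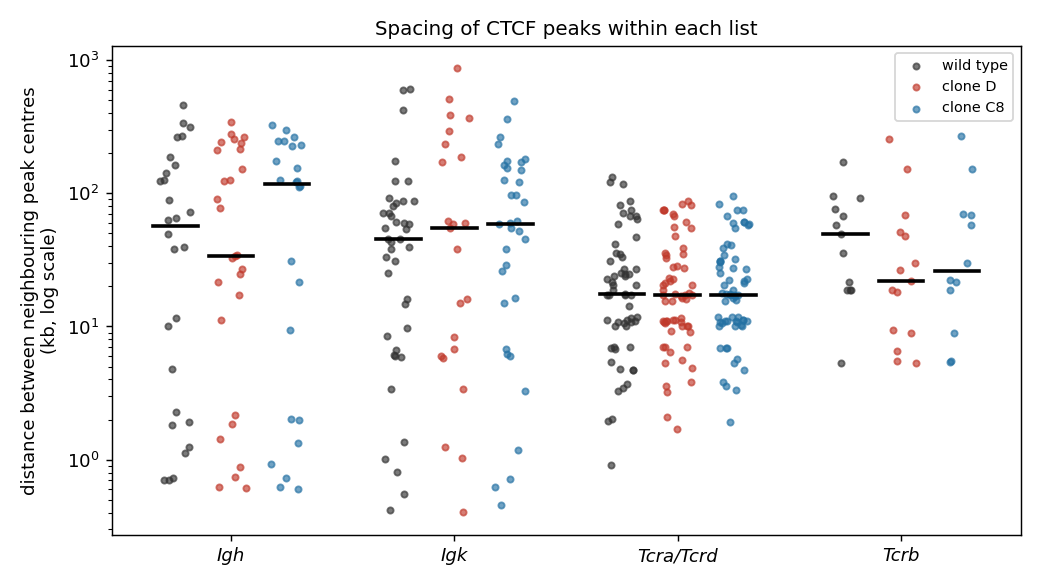
Distance between neighbouring peak centres (kb, log scale) within each list for the 4 loci; each point is a pair of neighbours and each black line a median. The longest distances are 459 kb in Igh and 870 kb in Igk, and the Tcra/Tcrd medians of 17.1 to 17.7 kb almost coincide.

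The D-J-C side of Igh held a compact cluster. In the wild-type list 9 peaks lay between 114451960 and 114462808, a span of 10.8 kb, and D and C8 each had 8 peaks in spans of 8.70 and 8.62 kb. The first and weakest of the wild-type peaks (114451960 to 114452281, fold enrichment 11.3) was absent from both clones, and the other 8 regions were called in all 3 lists. Column 7, the authors' fold enrichment, is compared only within a list, and each list has its own median: 22.7 in wild type, 17.4 in D and 21.5 in C8.

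Within the cluster the region from 114456094 to 114456601 had the highest fold enrichment in each list. It reached 64.9 in wild type, 43.5 in D and 60.7 in C8, and 91.8%, 94.0% and 96.1% of the respective list was weaker. The widest, from 114460041 to 114461541, had 57.8, 30.9 and 31.2, with 88.4%, 81.2% and 69.9% of the list weaker. By −log10 p their order was reversed, with 80.6, 90.3 and 80.9 at the widest and 57.0, 64.8 and 58.2 at the other. These regions were above the median of their list in all libraries. At the region from 114459318 to 114459969 the fold enrichment was 54.5 in wild type, 29.1 in D and 18.1 in C8, where it lay below the list median. The region from 114455412 to 114456022 had 37.3, 15.8 and 13.8 and lay above the median in wild type and below it in both clones. It and its neighbour formed the closest pair of Igh in wild type, 0.701 kb apart.

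The next region lay 263 kb away, at 114725747 to 114726359, the last on the D-J-C side of Igh. Its fold enrichment was 45.7 in wild type and 38.8 in C8, with 79.7% and 80.4% of the list weaker. In D it was 12.9, with 32.9% of the list weaker, so the clones stood apart at this site and wild type stood with C8.

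On the Igh V side the first region, from 114816432 to 114816800, was called in D alone, with 7.66. The next, from 114848948 to 114849605, was called in all 3 lists with 24.3, 11.5 and 20.8. No region after it was shared by the 3 lists until 117265972 to 117266873, a stretch of 2417 kb. Between neighbouring regions shared by all lists on the autosomes the median distance was 30.2 kb, and 0.339% of 23297 distances were as long as this one. The stretch was not empty. It held 15 wild-type peaks, 16 of D and 13 of C8, with median enrichments of 12.5, 7.63 and 11.6. Just 1 peak in each list had a −log10 p of 10 or more. Of its 34 regions, 10 were private to wild type, 10 to D and 4 to C8. The clones shared 5, wild type shared 4 with C8 and 1 with D.

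At the far edge of the Igh window lay its region of highest fold enrichment in wild type and D, 117265972 to 117266873. Its fold enrichment was 73.5 in wild type, 53.5 in D and 50.4 in C8, and 95.1%, 98.0% and 91.1% of the list was weaker. The last region of the window, 117287796 to 117288458, had 49.3, 31.4 and 41.3, with 81.9%, 82.1% and 83.3% weaker. These stood high in all lists, in contrast to the stretch before them. The widest gap between wild-type peaks in Igh, 459 kb, ran from the peak at 115938693 to 115939032 to the peak at 116397728 to 116398153, inside that stretch.

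The J and C side of Igk, 0.15 Mb long, was the most crowded side of the 4 loci, with 13 wild-type peaks, 12 of D and 11 of C8. Which of these peaks lie beyond Igkc was not determined. The side began with a run of 4 peaks in each list within 5.25 kb in wild type, 5.37 kb in D and 5.30 kb in C8. The first of these, 70659244 to 70659740, had enrichments of 35.7, 20.6 and 20.7. It lay 0.421 kb from the next peak in wild type, the closest pair of the locus. The fourth, 70664071 to 70664616, had 83.3, 21.3 and 58.1, with 97.2%, 61.1% and 95.2% of the list weaker. As at the last D-J-C region of Igh, wild type and C8 were high within their lists at this site and D was not.

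Towards the window edge followed 8 further regions of which 6 were called in all 3 lists. The last, 70761660 to 70762407, had 83.3, 50.0 and 54.1, with 97.2%, 97.0% and 93.3% of the list weaker, so it was among the strong sites of each library. The region from 70718573 to 70719171 had 78.0, 24.5 and 36.3, with 96.3%, 69.0% and 77.8% weaker. A group of peaks from 70754289 to 70755700 had 74.1, 33.3 and 40.78 at its strongest. In it 1 D peak overlapped 2 peaks each of wild type and C8. The regions missing from a list were 70733591 to 70733925 (19.7 in wild type, 8.23 in D) and 70741974 to 70742324 (12.8 and 9.2), weak where called and absent from C8.

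The wild-type peak with the highest fold enrichment of all 4 loci lay on the V side of Igk, at 67648829 to 67649614. Its fold enrichment was 86.7 in wild type, 30.9 in D and 66.7 in C8, and 97.8%, 81.2% and 97.8% of the list was weaker. Its wild-type −log10 p of 73.5 was below the 102.4 at 54847460 to 54848271 in Tcra/Tcrd and the 80.6 at 114460041 to 114461541 in Igh. The V side had 6 other regions in all 3 lists. The last of them, 68618183 to 68618901, had 35.7, 28.8 and 43.9. Beyond it no region was shared by the 3 lists for 2041 kb, up to the J and C side, and 0.476% of autosomal distances were as long.

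Inside that stretch the lists had little in common. Wild type had 8 peaks, all private to wild type, with a median enrichment of 11.9 and none with −log10 p at 10 or above. D had 3 peaks and C8 11, with medians of 7.76 and 14.2. All 3 D peaks were also called in C8, and the other 8 C8 peaks in no other list. The strongest of them lay at 69601254 to 69601632, where the enrichment was 24.6 and −log10 p 17.5. Others were at 68888054 to 68888579 (19.4) and 69063353 to 69063707 (18.1). The widest wild-type gap of the locus, 609 kb, lay between 69099212 to 69099570 and 69708636 to 69708921.

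Tcra/Tcrd was the locus with the most shared regions, 44 of 85 in all 3 lists, or 23.2 per Mb, against 4.14 in Igh, 5 in Igk and 12.5 in Tcrb. Its longest stretch without a shared region was 254 kb, from 54425708 to 54426492 on to 54679379 to 54679887. Such a length or more was seen in 8.04% of autosomal distances. The wild-type V-side peaks were of middle strength: 32 of 56 lay above the list median, with 25 of 60 in D and 21 of 62 in C8. Only 1, 3 and 1 of them were in the strongest 10% of their list.

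The shared regions of Tcra/Tcrd with the highest wild-type enrichment stood on both sides of the split. The last on the D-J-C side, 54858541 to 54859265, had enrichments of 67.41 in wild type, 37.2 in D and 71.1 in C8, with 93.1%, 89.3% and 98.5% of the list weaker. On the V side, at 53441166 to 53441771, 92.7%, 90.4% and 86% of the list was weaker, and 54136112 to 54136778 had 61.5, 38.7 and 45.2. For each of these at least 86% of every list was weaker. The V-side region from 53741239 to 53741847 had 57.5 in wild type, 40.3 in D and 56.85 in C8, above both of these V-side regions in each clone. On the D-J-C side 54847460 to 54848271 had 54.94, 30.8 and 23.6, and 54772519 to 54773044 had 39.7, 23.1 and 25.8. The other regions there were called in part of the lists. The first, 54711986 to 54712567, had 12.8 in D and 16.8 in C8 and was absent from wild type, and 54752154 to 54752780 had 13.9 in wild type and was absent from both clones. The closest wild-type pair (54188184 to 54188512 and 54189066 to 54189461) was 0.915 kb apart, and neither peak was called in a clone. The widest wild-type gap was 134 kb.

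Tcrb had its strong sites on the V side. The region from 41062671 to 41063409 had enrichments of 79.3 in wild type, 52.7 in D and 45.3 in C8, with 96.4%, 97.8% and 87.7% of the list weaker. The region from 41005397 to 41006117 had 73.4, 51.0 and 55.6, and that from 41086810 to 41087467 had 61.5, 49.4 and 52.97. Each was high in every library, with at least 87.7% of the list weaker. Between these sites lay 41040999 to 41041634 (39.7, 24.7 and 51.7) and 41068118 to 41068696 (24.3, 26.3 and 27.9). Towards the D-J-C side a stretch of 267 kb held no shared region, with 1 weak wild-type peak, 1 weak D peak and no C8 peak. The D-J-C side began with 41480100 to 41480413 (41.63, 19.8 and 18.1) and ended with 41572416 to 41573072 (35.4, 24.7 and 22.03), both in all 3 lists. The 3 regions between them were each called in 1 clone only. The closest wild-type neighbours, 5.36 kb apart, were the peaks at 41062817 to 41063275 and 41068118 to 41068696, and the widest wild-type gap was 172 kb.

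Over the 4 loci, peaks of the D-J-C sides were stronger within their lists than peaks of the V sides. On the D-J-C sides 21 of 29 wild-type peaks, 19 of 29 of D and 19 of 27 of C8 lay above the list median. On the V sides the counts were 46 of 116, 37 of 104 and 35 of 112. A −log10 p of at least 10 was reached by 86.2%, 86.2% and 92.6% of D-J-C peaks, and by 44.8%, 58.7% and 54.5% of V-side peaks. Over the whole lists it was reached by 55.8%, 73.8% and 69.4%. Tcrb went against this pattern in the clones, where 2 of 4 and 1 of 3 D-J-C peaks lay above the list median, against 7 of 12 and 6 of 10 on its V side. Igk gave 13 wild-type, 12 D and 11 C8 peaks of the D-J-C sides, and some may lie beyond Igkc.

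**Figure D5:**
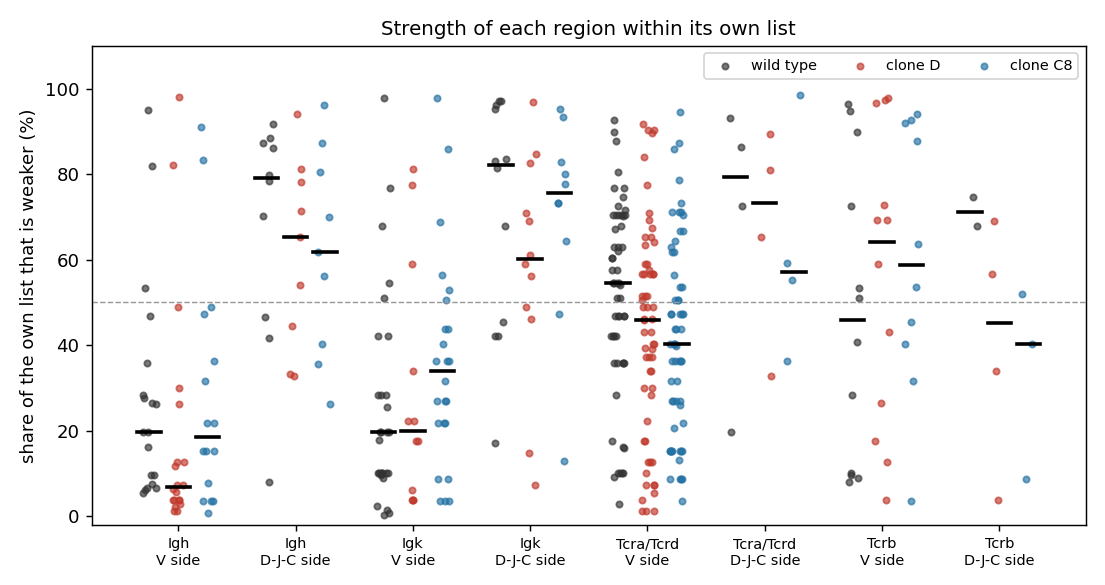
Strength of each region within its own list, as the share of that list's peaks that are weaker (%), by locus and side; points are regions (strongest peak of the list in it), black lines medians, and the dashed line marks 50%. In all 3 lists the medians of the Igh and Igk V sides lie below the dashed line and those of their D-J-C sides above it.

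Of the 145 wild-type peaks, 91 were overlapped in D (62.8%, 95% interval 54.4 to 70.64) and 92 in C8 (63.4%, 55.1 to 71.3), a mean of 63.1% ± 0.488 (SD, n = 2). Over the whole wild-type list the shares were 63.1% and 65.3%, inside these intervals. Both clones overlapped 84 of the 145 (57.9%, 49.5 to 66.1), against 59.8% of the whole list. With lists of equal length the share was 81.0% by enrichment and 76.2% by −log10 p, and the whole-list share at equal length was not computed. By locus the share found in both clones was 12 of 29 in Igh, 18 of 42 in Igk, 44 of 60 in Tcra/Tcrd and 10 of 14 in Tcrb. For Tcra/Tcrd this is 73.3% (60.3 to 83.9) and for Igk 42.9% (27.7 to 59.0), and in these loci the interval does not hold the whole-list share. The loci differed in peak strength. At −log10 p of 10 or more the counts were 38 of 40 in Tcra/Tcrd and 14 of 15 in Igk, against 90.9% of the whole list. Below 10 they were 6 of 20 and 4 of 27, against 20.4%.

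The share followed peak strength. Of the 77 wild-type peaks whose −log10 p was 10 or more, both clones overlapped 73 (94.8%, 87.2 to 98.6), against 90.9% of all such wild-type peaks. Of the 68 weaker ones both overlapped 11 (16.2%, 8.36 to 27.1), against 20.4%. The sides differed in the same way: 25 of 29 wild-type peaks on the D-J-C sides were found in both clones and 59 of 116 on the V sides. Among peaks whose −log10 p was 10 or more these counts were 24 of 25 and 49 of 52.

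Read from the clones, the share of peaks found in wild type was below that of the whole lists, which lay above the members' intervals. Wild type overlapped 90 of 133 D peaks (67.7%, 59.0 to 75.5), against 85.1% of the whole D list. It overlapped 92 of 139 C8 peaks (66.2%, 57.7 to 74.0), against 81.4%. C8 overlapped 106 of 133 D peaks (79.7%, 71.9 to 86.2; whole list 87.9%), and D overlapped 107 of 139 C8 peaks (77.0%, 69.1 to 83.7; whole list 81.3%). The clones thus shared more peaks with each other than with wild type in these windows, as in the whole lists for D, whereas the whole C8 list matched wild type and D about equally.

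Weak peaks took a larger part of the members than of the lists, so strength was held fixed in part. With a −log10 p of 10 or more, wild type overlapped 77 of 86 D peaks (89.5%, 81.1 to 95.1) against 95.8% of all such peaks, and 75 of 86 C8 peaks (87.2%, 78.3 to 93.4) against 95.7%. Below that value it overlapped 13 of 47 (27.7%, 15.6 to 42.6) against 54.6% in D, and 17 of 53 (32.1%, 19.9 to 46.3) against 48.8% in C8. In both bands the whole-list share lay above the interval of the members. At a −log10 p of 20 or more no shortfall was seen. There wild type overlapped 48 of 48 D peaks and 44 of 44 C8 peaks, against 99.38% and 99.55% of all such peaks. Peaks of a band still differ in strength, and neighbouring peaks are not independent. On the D-J-C sides wild type overlapped 26 of 29 D and 25 of 27 C8 peaks, and on the V sides 64 of 104 and 67 of 112.

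The 23 regions called in both clones and absent from wild type comprised 22 on the V sides, which held 179 of all 211 regions. By locus 11 of them were among the 85 regions of Tcra/Tcrd, 5 among the 49 of Igh, 5 among the 56 of Igk and 2 among the 21 of Tcrb. They were of low to middle strength, with a median enrichment of 10.7 in D (6.59 to 22.2) and 12.9 in C8 (9.04 to 21.96). The nearest wild-type peak lay 1.41 to 287 kb away, with a median of 27.2 kb. With a −log10 p of 10 or more in both clones, 74 regions of the loci qualified and 5 of them were absent from wild type (6.76%, 2.23 to 15.1), against 1.88% genome-wide. By the same measure 0 of 66 held by wild type and C8 were absent from D (exact upper limit 5.44%; genome 1.4%), and 0 of 69 held by wild type and D were absent from C8 (upper limit 5.21%; genome 0.729%). At a −log10 p of 20 or more in both clones, 0 of 35 were absent from wild type (upper limit 10%).

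Of these 5 regions, 4 lay in Tcra/Tcrd. The highest enrichment in D was at 54500796 to 54501326, with 22.2 in D, 19.4 in C8 and the nearest wild-type peak 58.0 kb away. Next came 54285267 to 54285808 (15.6 and 12.5), 54396253 to 54396735 (14.8 and 19.4) and 54711986 to 54712567 on the D-J-C side (12.8 and 16.8). The fifth lay on the V side of Igk at 68148012 to 68148470 (10.7 and 16.8). In D only the first of these exceeded the list median, and in C8 none did.

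Of the 46 regions private to wild type, 45 had −log10 p below 10 (97.8%), against 92.8% of all regions private to wild type genome-wide, and their median enrichment was 11.9. The exception was the Tcra/Tcrd D-J-C peak at 54752154 to 54752780, where −log10 p was 10.6. Of the 20 D-only regions 19 were below 10 (95%, genome 92.1%), the exception being 53774941 to 53775303 in Tcra/Tcrd, with an enrichment of 13.2. Of the 24 C8-only regions 21 were below 10 (87.5%, genome 93.1%), and the exceptions were the 3 Igk V-side peaks given above. Low strength of regions private to 1 list was thus also seen genome-wide.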

How the data were processed

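CTCF ChIP-seq peak lists of 3 libraries were used. The build was mm9, and the tools named were Bowtie 1.0.0 and bcl2fastq 1.8.4, per the submitters' processing notes. The peak caller and its input use were not given in the sources used here. Each library has 1 list deposited by the authors, with a fold enrichment (a ratio) in column 7. Column 8 of the deposited lists is a −log10 p, and column 9 a false discovery rate as a fraction (a q-value). Input libraries were not used here, and no sequence or motif is given because no mm9 genome was used.

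Peaks lying wholly inside the windows were taken. Overlap meant at least 1 bp, and regions were connected sets of overlapping peaks. Intervals are exact (Clopper-Pearson, 95%) and cover counting error only. Named regions followed a rule: in each locus the 3 with the highest wild-type enrichment among those shared by all lists, those missing from a list with −log10 p of at least 10 wherever held, those at the edges of the D-J-C side, and the closest neighbours and widest gap in wild type. Other regions named (the rest of the Igh cluster and of the D-J-C sides, the ends of long stretches without shared regions, the last Igh region, and further V-side sites of Tcra/Tcrd and Tcrb) were chosen after their values were seen. Windows, splits and rule were chosen with earlier results of these data known. Python 3.11.15, pandas 2.3.3, numpy 2.4.6 and SciPy 1.17.1 were used. On simulated data 3000 of 3000 regions fell in the right class, and 12 of 12 real overlap counts equalled those of bedtools 2.31.1. Alternatives were other overlap rules, thresholds and window widths, and leaving out each clone.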

Additional observations from a re-analysis of the deposited data

How the results depend on the processing

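With 1 wild-type library, unknown depth and no mm9 genome, a missing call may reflect fewer reads, and the planned motif count was not run. No paired comparison of genotypes was possible, because wild type and each clone have 1 CTCF library, and nothing here was tested. Replicate numbers are absent from the labels, and those used only name the samples. Values were compared with the spread between clones (0.488 percentage points) for the share and a factor of 1.5 for counts and spacings. That spread comes from overlaps of 91 and 92 of 145 peaks, so almost any change in the share counted as moved. Of 88 values over the 4 loci, 64 stayed within and 24 moved; of 81 single-locus spacings, 18 moved, those of Igh by the most: its medians (56.5 kb in wild type, 34.0 in D, 118 in C8) were 106, 107 and 150.5 kb with windows narrowed, and 32.7, 27.4 and 27.3 kb with windows widened. The wild-type share overlapped in both clones (57.9%) was 52.4% with a reciprocal overlap of 50%, 60.1% with windows widened and 52.1% with windows narrowed by 100 kb. It was 84.4% with −log10 p at 10 or above in every list, 81.0% and 76.2% with lists of equal length (29769 peaks) by enrichment and by −log10 p, and 94.4% with the false discovery rate limited to 0.05. By construction these thresholds remove weak peaks, of which wild type held more. At the false discovery rate limit the loci kept 72 of 145 wild-type peaks, 120 of 133 of D and 116 of 139 of C8. That limit thus fell mainly on wild type. Leaving out each clone gave 62.8% to 63.4%, and 43 to 47 regions in the remaining clone without wild type, since 1 list then had to hold them. Chosen after seeing the data, leaving out Igk gave 64.1% and 26 wild-type-only regions, the D-J-C sides alone 86.2% and the V sides alone 50.9%. With −log10 p at 10 or above the loci held 77 peaks of wild type, 86 of D and 86 of C8. Regions rebuilt from these cut lists included 5 private to wild type and 10 shared by the clones alone. A peak below 10 then counts as absent. Against the uncut lists, 5 regions with this value in both clones were absent from wild type, and 45 of 46 wild-type-only regions lay below it. Wild-type-only regions numbered 7 and 13 with equal lengths by enrichment and by −log10 p, and no genome-wide values were computed for these settings. With the false discovery rate limited to 0.05 they were 0, with 72 wild-type peaks left. The 23 regions in both clones without wild type were 21 to 24 under the other overlap rules, list lengths, false discovery rate and window widths, and 18 without Igk.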

Other observations

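The flanks of the loci, chosen as 1 Mb on each side, differed between the edges. Below Igh, next to its CTCF cluster, there were 45 peaks in wild type, 40 in D and 42 in C8, and above it 10, 4 and 8. Tcra/Tcrd had 40, 37 and 39 peaks below and 63, 53 and 58 above. Igk had 21, 15 and 14 below and 21, 22 and 23 above, and Tcrb 13, 10 and 11 below and 24, 15 and 16 above. Both flanks of Tcra/Tcrd and of Igk, and the flank below Igh, held more peaks per Mb than the loci themselves in all 3 lists.

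Fold enrichment ranked the shared regions alike in the libraries. Over 82 regions of the loci with 1 peak per list, Spearman's rho was 0.646 between wild type and D, 0.686 between wild type and C8 and 0.673 between the clones. Over 23656 such regions of the genome it was 0.691, 0.713 and 0.752. These are descriptions across sites of the same libraries, without a test.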
